A study of Mus musculus with 4 samples.

Results

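Apolipoproteins are the protein components of the particles that carry lipid in plasma. The 9 genes Apoe, Apoc1, Apoc2, Apoa1, Apoa2, Apoc3, Apob, Apoh and Apom were taken by symbol from a deposited table of 52630 mouse genes, and all 9 were found. They were measured in AML12, a hepatocyte line established from the liver of a mouse that carries a human TGF-alpha transgene under a metallothionein promoter. Cells received lentivirus with a control short hairpin RNA (shCtrl) or with a hairpin directed at Topors (shTopors), an E3 ligase for ubiquitin and SUMO, and each group has 2 libraries. All cells were grown in DMEM/F12 with 10% fetal bovine serum, an ITS supplement and 0.1 µM dexamethasone, received 200 µl of virus concentrate, had a medium change at 24 hours and were harvested on day 5. The labels name no hairpin sequence and describe a single shTopors construct. Whether libraries of 1 group were grown as separate cultures is not given in the labels, and p-values then reflect only how far these libraries differ, which may be technical. Values given in pairs are those of libraries 1 and 2, in this order. Levels are TPM, a relative transcript unit scaled for gene length and library that keeps no depth, so read numbers per value are not known here.

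Lipoproteins made by hepatocytes are assembled around apolipoprotein B and leave the cell as very-low-density particles, which are then stripped of triglyceride by lipoprotein lipase. Smaller apolipoproteins sit on the particle surface and exchange between particles: apolipoprotein E is the ligand for receptor-mediated uptake of particles, the C apolipoproteins tune lipase activity and uptake, and apolipoprotein A-I forms high-density particles. Apoe, Apoc1 and Apoc2 lie in one gene cluster, with Apoc4, on chromosome 7 in mouse, and Apoa1 and Apoc3 lie in another, with Apoa4 and Apoa5, on chromosome 9.

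The 9 genes fell into 6 with a mean over the 4 libraries of 1 TPM or more and 3 that were below 1 TPM in every library. In the controls, Apob at 319 and 360 TPM and Apoe at 209 and 426 TPM were the highest, and these neighbours in the order overlapped. Apoc2 followed at 67.0 and 41.8 TPM and Apoa1 at 12.3 and 28.4 TPM, with no overlap between these 2 or with Apob and Apoe. Apoc1 at 3.90 and 9.19 TPM and Apoh at 2.74 and 8.63 TPM came next and overlapped. In the knockdown the order changed: Apob stayed highest at 270 and 144 TPM, and Apoe, at 7.65 and 32.9 TPM, stood below Apoc2 in each library.

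**Figure D1:**
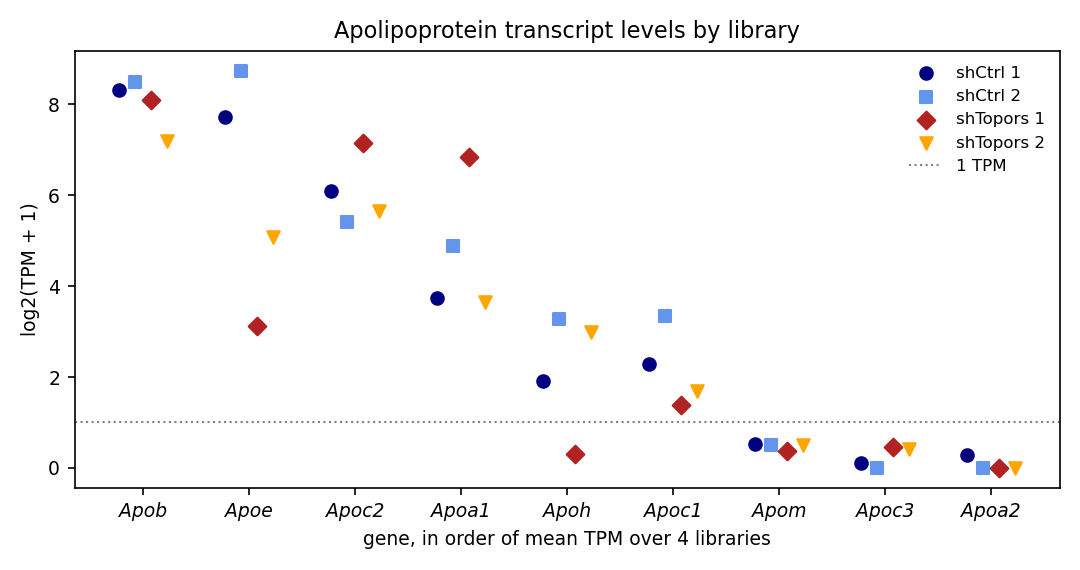
Transcript level of the 9 apolipoprotein genes as log2(TPM + 1), 1 point per library (blue, shCtrl; red and orange, shTopors), with genes ordered by mean TPM and a dotted line at 1 TPM. Apoe lies lower in both knockdown libraries than in both controls, Apoa1 and Apoc2 are highest in shTopors 1, and Apom, Apoc3 and Apoa2 lie under the line in all 4 libraries.

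The start regions of the 4 genes whose mean reached 5 TPM are printed here because these genes carry the values below. The windows are those of RefSeq on GRCm38.p6, from 250 bases before the start to 50 bases after it, on the strand of the gene, and 7 of the 9 genes had a window. RefSeq has several starts for Apoe, and the window at the GENCODE M21 gene start is shown. Capitals mark matches, on either strand, to any of 4 motifs. The first is the TATA box, searched as TATAAA, and the next is the GC box of SP factors, searched as GGGCGG. The CCAAT box was searched by its own name. The nuclear receptor element was searched as AGGTCA. No match overlapped another in these windows.
Apoe, chr7:19699139-19699438, minus strand: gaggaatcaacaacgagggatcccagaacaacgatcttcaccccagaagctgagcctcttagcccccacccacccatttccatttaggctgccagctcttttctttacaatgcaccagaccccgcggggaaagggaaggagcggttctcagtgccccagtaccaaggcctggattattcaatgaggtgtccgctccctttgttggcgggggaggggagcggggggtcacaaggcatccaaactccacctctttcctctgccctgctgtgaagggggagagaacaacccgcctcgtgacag
Apoc2, chr7:19677892-19678191, minus strand: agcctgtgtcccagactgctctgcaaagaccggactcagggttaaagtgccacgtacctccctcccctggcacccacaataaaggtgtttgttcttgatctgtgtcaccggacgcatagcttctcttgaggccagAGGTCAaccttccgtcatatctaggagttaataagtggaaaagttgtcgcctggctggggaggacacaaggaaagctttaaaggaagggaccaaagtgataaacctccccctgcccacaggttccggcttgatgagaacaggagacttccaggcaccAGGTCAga
Apoa1, chr9:46228380-46228679, plus strand: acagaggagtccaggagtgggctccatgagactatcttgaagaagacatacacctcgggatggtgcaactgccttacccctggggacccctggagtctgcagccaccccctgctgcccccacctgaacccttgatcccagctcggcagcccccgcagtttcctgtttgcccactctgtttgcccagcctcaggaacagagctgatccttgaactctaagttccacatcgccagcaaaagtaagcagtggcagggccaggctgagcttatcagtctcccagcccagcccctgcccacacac
Apob, chr12:7977427-7977726, plus strand: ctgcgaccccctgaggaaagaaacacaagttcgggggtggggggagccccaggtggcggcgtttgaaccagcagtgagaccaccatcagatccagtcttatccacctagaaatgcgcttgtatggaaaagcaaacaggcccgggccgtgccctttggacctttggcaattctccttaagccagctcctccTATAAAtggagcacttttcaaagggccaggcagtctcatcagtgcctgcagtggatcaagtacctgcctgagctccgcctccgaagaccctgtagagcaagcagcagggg
The Apoe and Apoa1 windows shown held 0 matches, the Apoc2 window held 2 (the nuclear receptor element 115 bases before and 42 bases after the start) and the Apob window held 1 (the TATA box 60 bases before the start). Of the other 2 RefSeq windows of Apoe, the one from 19698572 to 19698871 held 2 matches to the TATA box, 96 and 100 bases before its start, and the one from 19698349 to 19698648 held 0. Over all 32851 windows in that table, 13.6% held the TATA box, 35.7% the GC box, 37.4% the CCAAT box and 16.3% the nuclear receptor element. A match is a run of letters and was not tested as a binding site.

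The knockdown was compared with the control hairpin to learn which hepatocyte transcripts depend on Topors. Topors itself had 21.9 and 29.2 TPM with the control hairpin against 4.31 and 4.65 TPM with shTopors, which fits the labels of all 4 libraries. The test was limma's moderated fit on log2(TPM + 1) over the 13509 genes whose mean reached 1 TPM, with Benjamini-Hochberg adjustment over all of them. Under this test 0.0296% of tested genes were called lower and 0.00740% higher at an adjusted p under 0.05. Topors itself was not called (log2 change -2.27, SE 0.288, limma adjusted p = 0.0823), so a missed call is not evidence of no difference. Of the 6 tested apolipoprotein genes 0 were called in limma's test in either direction. At an unadjusted p under 0.05, 3 of the 6 were lower and 0 higher, where 10.7% of all tested genes were lower and 3.98% higher. The same 3 genes, Apoe, Apoc1 and Apob, had both knockdown libraries below both controls, which 35.2% of all tested genes also had, while 14.6% had both above and 0 of the 6 did. The median log2 change of the 6 was -0.85, beside -0.18 over all tested genes. With 2 libraries against 2, an exact permutation test of a single gene cannot go below a two-sided p of 0.333. An exact 0 in the table can be a failed estimate, and in bulk RNA fewer cells that make a transcript cannot be told apart from less of it per cell.

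Apoe (ENSMUSG00000002985, mm10 chromosome 7, 19696109 to 19699188, minus strand) had the largest difference of the set. It was at 209 TPM (shCtrl 1), 426 TPM (shCtrl 2), 7.65 TPM (shTopors 1) and 32.9 TPM (shTopors 2). Both knockdown libraries lay far below both controls, and shTopors 1 was the lowest. Its mean was 317 ± 153 TPM in the controls against 20.3 ± 17.9 TPM in the knockdown (SD, n = 2), a 15.7-fold lower level. The log2 change was -4.13 (SE 0.631), rank 2 from the lowest among the 13509 tested genes, with an unadjusted p = 0.000296 and an adjusted p = 0.110 in limma's fit, which missed the threshold. The controls themselves differed 2.04-fold and the knockdown libraries 4.30-fold. With 1 library left out, the limma adjusted p for Apoe was 1.08e-10 without shTopors 1 (log2 change -3.14) and 2.22e-22 without shTopors 2 (-5.11), where the lone knockdown library is assumed to vary like the controls. It was 0.233 without shCtrl 1 (-4.64) and 0.872 without shCtrl 2 (-3.62).

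Ratios within a library do not depend on how the libraries were scaled. Apoe relative to Apob was 0.655 and 1.18 in shCtrl and 0.0283 and 0.229 in shTopors. Apoe relative to Tomm40, the adjacent gene, which encodes a mitochondrial import pore, was 3.06 and 6.99 in shCtrl and 0.0764 and 0.428 in shTopors. Both ratios were lower in each knockdown library than in each control. Of the summed TPM of the 9 genes, Apoe made up 34.0% and 48.7% in shCtrl and 1.44% and 13.3% in shTopors. Apob made up 51.9% and 41.2% in shCtrl and 50.7% and 58.0% in shTopors, so it held the larger part in 3 of the 4 libraries. The summed level of the 9 genes was 615 and 874 TPM in shCtrl and 533 and 248 TPM in shTopors.

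**Figure D2:**
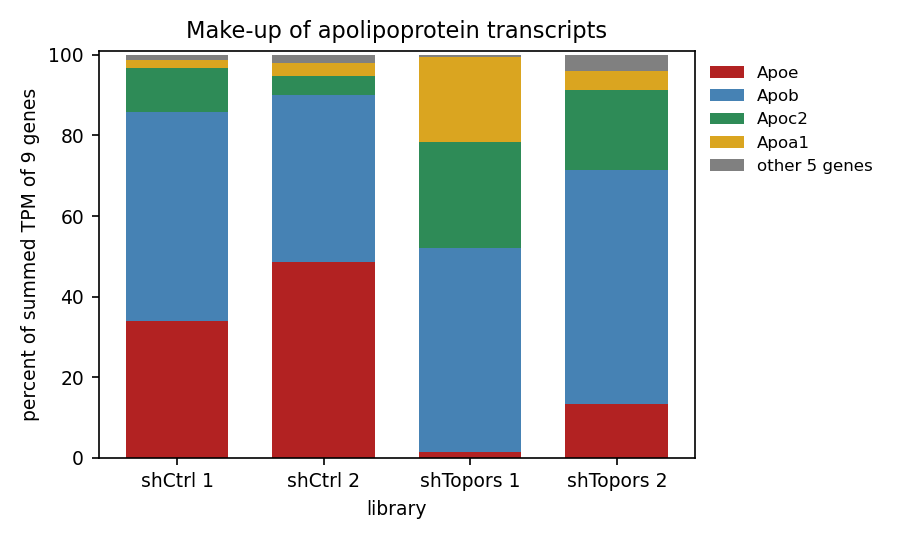
Share of each gene in the summed TPM of the 9 apolipoprotein genes, 1 stacked bar per library, in percent. The Apoe part is 34.0% and 48.7% in the controls and 1.44% and 13.3% in the knockdown, and Apoa1 makes up 21.2% in shTopors 1.

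The other genes of the Apoe cluster had smaller differences. Apoc1 and Apoc4 were lower without overlap, and Apoc2 overlapped the controls. Apoc1 (mm10 chromosome 7, 19689481 to 19692660, minus strand), whose product restrains lipid transfer and particle uptake, was at 3.90 and 9.19 TPM with shCtrl and 1.60 and 2.24 TPM with shTopors. Both knockdown libraries were below both controls, with a log2 change of -1.28 (SE 0.403, limma adjusted p = 0.244). Without shTopors 1 the log2 change of Apoc1 was -1.12, and without shTopors 2 it was -1.44. Apoc4, which is outside the 9 genes and encodes another C apolipoprotein, was at 15.2 and 26.6 TPM in the control libraries and 10.00 and 7.07 TPM in the knockdown. The Apoc4 log2 change was -1.17 (SE 0.354, limma adjusted p = 0.233), and its groups did not overlap.

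Apoc2 (mm10 chromosome 7, 19671579 to 19677941, minus strand) encodes the activator of lipoprotein lipase. It was at 67.0 and 41.8 TPM in the controls, at 140 TPM in shTopors 1 and at 49.6 TPM in shTopors 2. Only shTopors 1 lay outside the range of the controls, and the log2 change was 0.65 (SE 0.487, limma adjusted p = 0.548). Without shTopors 1 the log2 change of Apoc2 was -0.09, and without shTopors 2 it was 1.38. Apoc2 shares its strand and much of its span with Gm44805, a gene model that runs through Apoc4 and Apoc2, so the reads of the 3 are hard to tell apart. Gm44805 was listed at 0.000326 TPM in shCtrl 1, against 39.4 TPM in shCtrl 2 and 43.5 and 39.8 TPM in the knockdown. The sum of Apoc2 and Gm44805 was 67.0 and 81.2 TPM in shCtrl and 183 and 89.4 TPM in shTopors. That sum was higher in both knockdown libraries than in both controls, in contrast to Apoc2 alone, with a log2 change of 0.79 and a limma adjusted p = 0.371. With Apoc4 added the sum was 82.3 and 108 TPM in shCtrl and 193 and 96.4 TPM in shTopors, and the groups overlapped.

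Around the cluster, the genes around Apoe had smaller differences than Apoe itself. Within 100 kb of the cluster's 3 members, 11 other genes were tested, and 0 were called in limma's test. At an unadjusted p under 0.05 in limma's fit, 2 of these 11 were lower, beside 10.7% of all tested genes. They were Apoc4 and Gemin7, a component of the SMN complex. Gemin7 was at 59.4 and 65.0 TPM in the controls against 42.2 and 32.8 TPM in the knockdown. Tomm40, whose start lies 16.2 kb from that of Apoe, was at 68.3 and 60.9 TPM with shCtrl and 100 and 76.9 TPM with shTopors, with a log2 change of 0.44 (SE 0.254, adjusted p = 0.451). Clptm1, on the far side of Apoc2, was at 86.2 and 64.5 TPM in the control libraries and 66.3 and 56.6 TPM in the knockdown. The groups overlapped for 4 of the 11, were lower in the knockdown for 4 and higher for 3, beside 35.2% of all tested genes lower and 14.6% higher without overlap, so the share lower was near that of all genes.

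**Figure D3:**
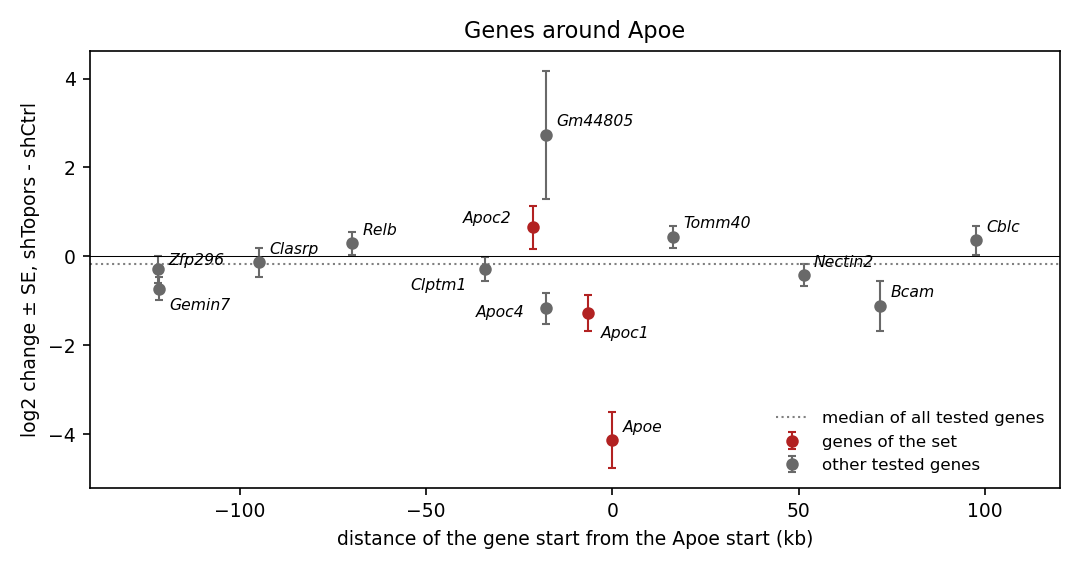
Log2 change of TPM + 1 (shTopors minus shCtrl, bars ± SE of limma's fit) of the tested genes around Apoe, against the distance of each gene start from the Apoe start in kb. Apoe stands at -4.13 and its neighbours Apoc1 and Tomm40 at -1.28 and 0.44, with the dotted line at the all-gene median of -0.18.

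Apob (mm10 chromosome 12, 7977648 to 8016835, plus strand), the scaffold protein of very-low-density and low-density particles, differed far less than Apoe. It was at 319 TPM (shCtrl 1), 360 TPM (shCtrl 2), 270 TPM (shTopors 1) and 144 TPM (shTopors 2). Both knockdown libraries lay below both controls, and here shTopors 2 was the lower. The means were 340 ± 28.7 and 207 ± 89.4 TPM (SD, n = 2), 1.64-fold lower in the knockdown, with a log2 change of -0.78 (SE 0.320, limma adjusted p = 0.328). Without shTopors 1 the Apob log2 change was -1.23, and without shTopors 2 it was -0.33.

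Apoa1 (mm10 chromosome 9, 46228580 to 46230466, plus strand), the main protein of high-density particles, was high in 1 knockdown library and low in the other. It was at 12.3 and 28.4 TPM with shCtrl, and in shTopors 1 and 2 at 113 and 11.5 TPM. The value of shTopors 2 lay below both controls and that of shTopors 1 above both, 9.81-fold apart. The log2 change of Apoa1 was 0.94 (SE 0.931, limma adjusted p = 0.651), -0.66 without shTopors 1 and 2.53 without shTopors 2. The neighbours Zpr1, a zinc finger protein gene, and Bud13, a splicing factor gene, were at 27.7 and 26.9 TPM and at 7.26 and 7.70 TPM in shCtrl. In shTopors, Zpr1 was at 29.8 and 33.6 TPM and Bud13 at 8.67 and 8.11 TPM, both above the controls. Their log2 changes were smaller than the SE, at 0.21 (SE 0.252, limma adjusted p = 0.709) for Zpr1 and 0.15 (SE 0.274, adjusted p = 0.814) for Bud13. Sik3, a kinase gene that is the other tested neighbour, was at 35.8 and 37.4 TPM with shCtrl, and at 54.3 TPM in shTopors 1 against 37.6 TPM in shTopors 2. Sik3 and Bud13 were thus highest in shTopors 1, as Apoa1 was, and Zpr1 in shTopors 2. The mean in the knockdown was 1.25-fold higher for Sik3 and 1.12-fold for Bud13, beside 3.06-fold for Apoa1. All 3 tested neighbours had both knockdown libraries above both controls, as 14.6% of all tested genes had, and 0 were called in limma's test.

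Apoh (mm10 chromosome 11, 108343354 to 108414396, plus strand) encodes a plasma glycoprotein that binds anionic phospholipid. It was at 2.74 and 8.63 TPM in the controls, at 0.239 TPM in shTopors 1 and at 7.00 TPM in shTopors 2. Only shTopors 1 was below the controls, and below 1 TPM, and the knockdown libraries were 29.4-fold apart. The span of Apoh overlaps Prkca, on the opposite strand, at 18.2 and 20.5 TPM in shCtrl and 19.7 and 20.5 TPM in shTopors. The strand setting behind the TPM is not given, so how reads were split between Apoh and Prkca is not known. The log2 change of Apoh was -0.93 (SE 0.846, limma adjusted p = 0.623), 0.42 without shTopors 1 and -2.28 without shTopors 2. Alb, the albumin gene, had a like contrast between the knockdown libraries, at 118 and 271 TPM with shCtrl, and in shTopors 1 and 2 at 4.15 and 402 TPM.

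**Figure D4:**
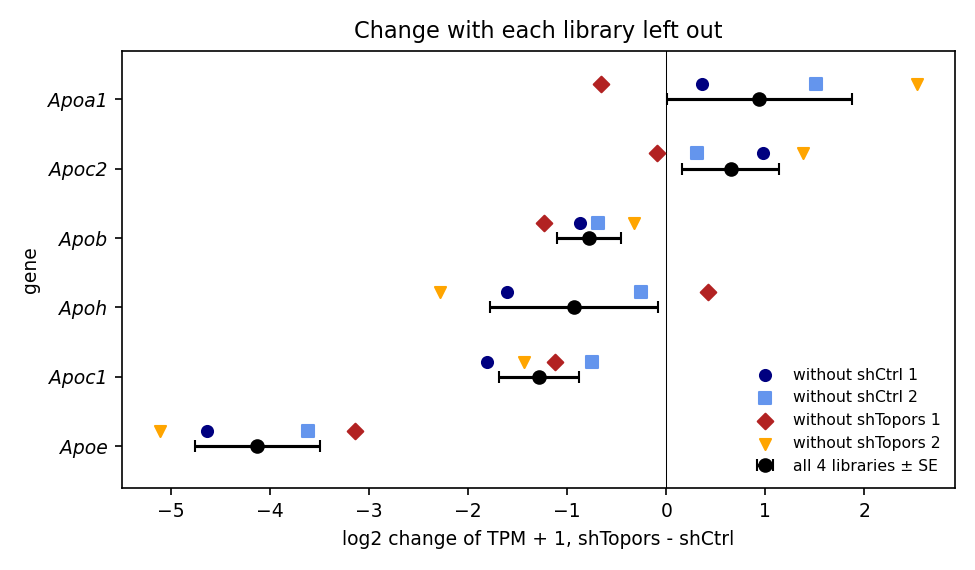
Log2 change of TPM + 1 (shTopors minus shCtrl) for the 6 tested genes, with all 4 libraries (black, ± SE of limma's fit) and with each library left out (coloured). Apoe, Apoc1 and Apob are below 0 in every case, whereas Apoa1, Apoc2 and Apoh change sign without shTopors 1.

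Leaving out a knockdown library changed how many of the 6 were called, and also how many of all genes. The group left with 1 library is then assumed to vary like the other group. These calls therefore do not reflect how far the knockdown libraries differ from each other. Without shTopors 1, 3 of the 6 were called lower (Apoe, Apoc1 and Apob) and 0 higher in limma's test, where 6.67% of all tested genes were called lower and 1.82% higher. Without shTopors 2, 3 were called lower (Apoe, Apoc1 and Apoh) and 2 higher (Apoc2 and Apoa1), where the shares of all tested genes were 10.9% and 5.09%. Without shCtrl 1, 0 of the 6 were called, where 0.0222% of all tested genes were called lower and 0.00740% higher. Without shCtrl 2, 0 of the 6 and 0 of all genes were called in limma's test.

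The 3 remaining genes were below 1 TPM in all 4 libraries and were not tested. Apoa2 (mm10 chromosome 1, 171225054 to 171226379, plus strand), which encodes a structural protein of high-density particles, was listed at 0.214 TPM in shCtrl 1 and at 0 in the other libraries. Apoc3 (mm10 chromosome 9, 46232933 to 46235636, minus strand), whose product inhibits lipoprotein lipase, was listed at 0.0780 TPM and at 0 in the controls, against 0.369 and 0.327 TPM after the knockdown. Apom (mm10 chromosome 17, 35128997 to 35132050, minus strand), whose product carries sphingosine-1-phosphate on high-density particles, was at 0.437 and 0.427 TPM in the controls against 0.304 and 0.429 TPM in the knockdown. Apoc3 was thus listed above both controls in both knockdown libraries, and Apom overlapped. The other members of the chromosome 9 cluster were as low, with Apoa4 at no more than 0.103 TPM and Apoa5 at no more than 0.102 TPM in any library.

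Of 13 other apolipoprotein genes, 10 had a mean under 1 TPM and 3 of those were at 0 in every library, among them Apod. Besides Apoc4, the tested ones were Clu and Apon. Clu, which encodes clusterin or apolipoprotein J, a secreted chaperone, was at 6808 and 4422 TPM with shCtrl and 2492 and 4591 TPM with shTopors. Per length, this level was above that of any of the 9 genes in every library, and the Clu groups overlapped (log2 change -0.70, SE 0.329, limma adjusted p = 0.381). Apon was at 1.49 and 1.57 TPM in the control libraries and 1.95 and 0.846 TPM in the knockdown.

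The labelled cell type was checked against its markers. Of 12 hepatocyte markers, 11 were found under the symbols used, 8 were tested and 3 had a mean under 1 TPM. Hnf4a, Krt8, Krt18 and Ttr were well above 1 TPM in all 4 libraries, whereas Fgg, a fibrinogen chain gene, was listed at 0 in 3 libraries and at 0.0327 TPM in shTopors 2, and Ahsg reached 0.521 TPM. Ttr, the transthyretin gene, was at 1119 and 2168 TPM in the controls against 195 and 410 TPM in the knockdown, with a log2 change of -2.46 (SE 0.425, limma adjusted p = 0.129). Krt18, a keratin gene, was higher in both knockdown libraries than in both controls, at 2069 and 1719 TPM with shCtrl against 3239 and 2168 TPM with shTopors (log2 change 0.49, adjusted p = 0.395), and the groups overlapped for the other 6. The summed hepatocyte markers were at 5765 and 6575 TPM with shCtrl and 7013 and 5270 TPM with shTopors. In every library most of this sum came from the keratin genes Krt8 and Krt18, so it says little of the other markers. Krt8 was at 2193 and 2096 TPM in the controls and 3218 and 2132 TPM in the knockdown. Alb was at 118 and 271 TPM in the controls, at 4.15 TPM in shTopors 1 and at 402 TPM in shTopors 2. Macrophages also make Apoe, and of 8 macrophage markers 7 had a mean under 1 TPM, with Adgre1, Clec4f and C1qa at 0 in every library. The summed macrophage markers were at 94.8 and 121 TPM in the control libraries and 112 and 218 TPM in the knockdown, nearly all from Cd14. All 8 stellate cell or fibroblast markers and all 6 endothelial markers had means under 1 TPM. Without Cd14, the 21 markers of these 3 cell types summed to 3.04 and 2.80 TPM in shCtrl and to 1.39 and 2.90 TPM in shTopors. Of 5 bile duct markers 4 were tested, and their sum was 952 and 1412 TPM in shCtrl and 1891 and 1088 TPM in shTopors, while Epcam did not exceed 0.0975 TPM. Sox9, the bile duct marker with the smallest p, was at 76.8 and 91.2 TPM in the controls against 26.9 and 42.1 TPM in the knockdown (limma adjusted p = 0.176). Krt19, the bile duct marker with the highest mean, was at 341 and 296 TPM in the controls, at 1396 TPM in shTopors 1 and at 345 TPM in shTopors 2 (log2 change 1.13, adjusted p = 0.405). The part of any of these markers in the Apoe difference was not tested.

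Factors known to control apolipoprotein genes were mostly lower or overlapping. Of 26 listed regulators, 24 were tested and 0 were called in limma's test. At an unadjusted p under 0.05, 8 of the 24 were lower and 0 higher, and 12 had both knockdown libraries below both controls while 12 overlapped. The shares over all tested genes were 10.7% lower and 3.98% higher at that p, and 35.2% below both controls. Their median log2 change was -0.26, beside -0.18 over all tested genes. Foxa1, a pioneer factor of liver development, had the smallest p, at 6.20 and 8.80 TPM with shCtrl and 1.54 and 1.65 TPM with shTopors (log2 change -1.69, SE 0.302, adjusted p = 0.130). Nr1h3, which encodes the oxysterol receptor LXR-alpha, a known activator of Apoe and of the Apoc genes, was at 43.0 and 46.9 TPM in the control libraries and 20.7 and 26.8 TPM in the knockdown. The Nr1h3 log2 change was -0.91 (SE 0.265, limma adjusted p = 0.226), and its part in the Apoe difference was not tested. Cebpa, a liver-enriched bZIP factor gene picked after its values were known, was at 20.9 and 22.4 TPM in the controls against 8.05 and 11.6 TPM in the knockdown (adjusted p = 0.218).

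Several other regulators had groups that overlapped. Hnf4a, the nuclear receptor that drives many apolipoprotein genes, was at 158 and 156 TPM with shCtrl and 179 and 95.3 TPM with shTopors, on both sides of the controls (log2 change -0.26, adjusted p = 0.711). Nr1h4, the bile acid receptor gene, was at 120 and 167 TPM in the control libraries and 143 and 147 TPM in the knockdown. Cebpb was at 71.8 and 77.1 TPM in the controls against 77.2 and 63.6 TPM in the knockdown. The sterol and lipogenic factor genes Srebf2 and Srebf1 overlapped between groups, and Srebf2 was highest in shTopors 1, at 105 TPM.

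Genes for lipoprotein assembly were mixed in direction. Of 17 listed genes 16 were found and 13 tested, and 0 were called in limma's test, with 1 lower and 3 higher at an unadjusted p under 0.05 beside 10.7% and 3.98% of all tested genes, and a median log2 change of 0.13. The groups did not overlap for 2 that were lower and 3 that were higher, and overlapped for 8. Over all tested genes, 35.2% were lower and 14.6% higher without overlap. Mttp, the transfer protein that loads lipid onto apolipoprotein B, had the smallest p, at 3.33 and 3.29 TPM with shCtrl and 6.83 and 10.7 TPM with shTopors (log2 change 1.15, SE 0.316, adjusted p = 0.222). P4hb, which encodes the partner subunit of Mttp, was at 912 and 997 TPM in the control libraries and 1148 and 728 TPM in the knockdown. Apobec1, which edits the Apob transcript and was picked with its values known, was at 1.58 and 1.53 TPM in the controls against 3.32 and 5.92 TPM in the knockdown (log2 change 1.10, adjusted p = 0.233). Both Mttp and Apobec1 were higher in each knockdown library than in each control. Cideb, which aids lipid loading of very-low-density particles, was at 35.1 and 39.6 TPM with shCtrl and 18.1 and 27.1 TPM with shTopors (adjusted p = 0.323). The cargo genes Surf4, Sar1a, Sar1b and Mia3 had groups that overlapped.

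Genes that remodel lipoproteins in plasma were lower or overlapping. Of 13 listed, 7 were tested and 0 called in limma's test, with 3 lower and 0 higher at an unadjusted p under 0.05, 4 with both knockdown libraries below both controls and a median log2 change of -0.72. Over all tested genes the shares were 10.7%, 3.98% and 35.2% and the median -0.18. Lpl, the lipase activated by the Apoc2 product, was at 6.60 and 8.12 TPM in the control libraries and 2.81 and 1.96 TPM in the knockdown (log2 change -1.31, SE 0.302, adjusted p = 0.176). Abca1, which loads cholesterol onto apolipoproteins A-I and E and is a target of LXR, was at 11.3 and 22.4 TPM in the controls against 0.273 and 5.84 TPM in the knockdown. The Abca1 log2 change was -2.52 (SE 0.740, limma adjusted p = 0.227), and shTopors 1 was the lowest library for it, as for Apoe. Whether LXR has a part in either difference was not tested. Angptl4 and Angptl8, which encode lipase inhibitors, were at 50.6 and 65.0 TPM and at 9.65 and 10.2 TPM in shCtrl. In shTopors Angptl4 was at 30.0 and 55.7 TPM, overlapping the controls, and Angptl8 at 5.13 and 3.76 TPM, below both.

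Receptor genes had no common direction. Of 15 listed, 13 were tested and 0 called in limma's test, with 2 lower and 1 higher at an unadjusted p under 0.05 beside 10.7% and 3.98% of all tested genes, and a median log2 change of 0.32. Lrp1, which takes up remnants that carry apolipoprotein E, had the smallest p, at 9.35 and 13.5 TPM with shCtrl and 4.25 and 2.49 TPM with shTopors (log2 change -1.52, SE 0.341, adjusted p = 0.172). Scarb1, the high-density particle receptor gene, was at 20.8 and 16.4 TPM in the control libraries and 26.5 and 19.8 TPM in the knockdown. Lsr, the receptor gene with the highest mean over the 4 libraries, was at 138 and 106 TPM in the controls against 204 and 143 TPM in the knockdown.

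**Figure D5:**
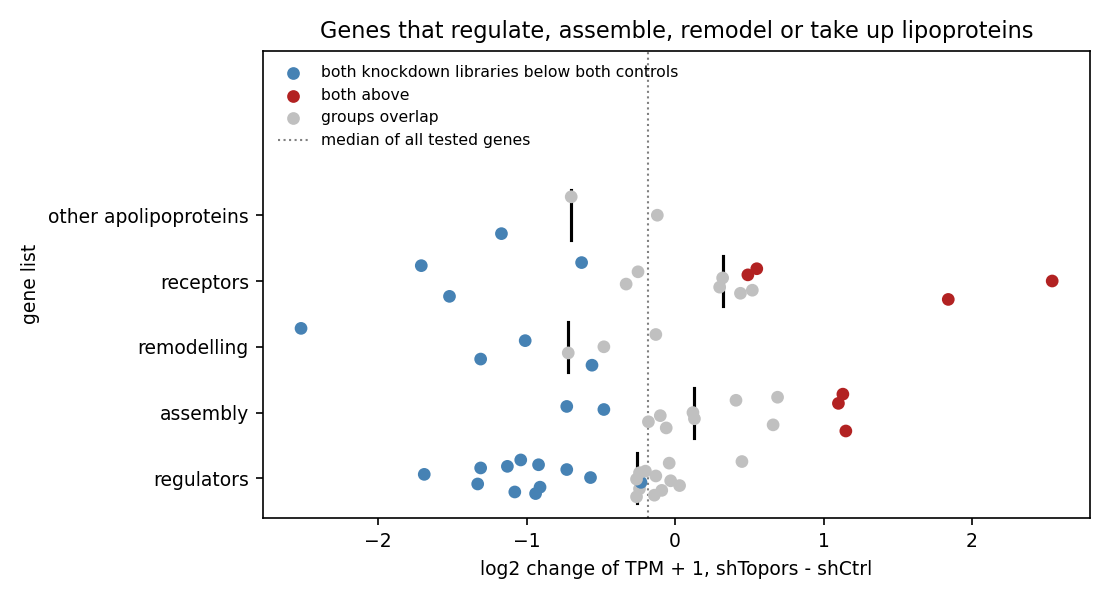
Log2 change of TPM + 1 (shTopors minus shCtrl) of each tested gene in 5 lists (points, coloured by whether the groups overlap), with the median of each list as a black bar and the all-gene median as a dotted line. The list medians are -0.26 for regulators, 0.13 for assembly, -0.72 for remodelling, 0.32 for receptors and -0.70 for other apolipoproteins, and 0 genes were called.

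The genes whose profile over the 4 libraries lay nearest to each apolipoprotein gene were found by the Euclidean distance between centred log2(TPM + 1) values, among 9407 genes averaging 5 TPM or more. This is a description over 4 libraries only. For Apoe they were Agt (distance 0.663), Vtn (0.886) and Qpct (0.977). Agt and Vtn encode angiotensinogen and vitronectin, both secreted by hepatocytes, and Qpct a glutaminyl cyclase. Agt was at 26.6 and 84.9 TPM with shCtrl and 1.12 and 6.04 TPM with shTopors, and Vtn at 28.9 and 68.9 TPM in the control libraries and 0.199 and 9.04 TPM in the knockdown. All 3 had shTopors 1 as the lowest library and shCtrl 2 as the highest, as Apoe had. They were picked for likeness to Apoe over these libraries, so the shared order is not a separate result. For Apob the nearest were Kcnab1 (0.0910), Plekha6 (0.0936) and Wdr13 (0.0973). For Apoc2 they were S100a6 (0.116), Timp1 (0.186) and Spsb1 (0.200), and for Apoa1 they were Lgals2 (0.806), Sec23a (0.806) and Insig1 (0.821). Insig1, a sterol-regulated gene of the endoplasmic reticulum, was at 12.7 and 18.3 TPM in the controls, at 89.7 TPM in shTopors 1 and at 16.5 TPM in shTopors 2.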

How the data were processed

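RNA from 4 AML12 libraries, 2 shCtrl and 2 shTopors, was extracted with TRIzol, depleted of ribosomal RNA and made into strand-specific libraries, per the labels' protocols. The authors deposited 1 table of TPM per gene and library. The submitters' processing notes name the build mm10 and the tools StringTie, DESeq2, HTSeq and HISAT2, with no version or role for any. The tool that produced the TPM is not named, nor is the strand setting. TPM summed to between 999914 and 999943 per library, and 12928 to 13847 genes reached 1 TPM. TPM keeps no depth, so no counting interval was computed.

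Columns were matched to samples by name, and rows with the same identifier were summed. Identifiers numbered 52630, and 52397 were found in GENCODE M21 (mm10), which gave coordinates. The test used limma (3.58.1, R 4.3.3) on log2(TPM + 1), allowing the variance to follow the mean, for genes whose mean reached 1 TPM. This scale understates fold changes at low levels. Benjamini-Hochberg adjustment ran over all tested genes, and an adjusted p under 0.05 was a call. Lists were given by counts and medians, with no set test. Only the limma step was tested on simulated data, drawn with the same spread in both groups. Knockdown libraries that differ more than the controls, as for some genes here, were not simulated.

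The members and lists were chosen with earlier results of these data known. Named are the 9 members, Topors, and of each list the gene with the smallest p and the one with the highest mean, with up to 6 more by mean in the lists of other apolipoproteins, assembly, remodelling, receptors and regulators. Also named are tested genes within 100 kb in the 2 clusters and the 3 nearest profiles of members whose mean reached 5 TPM. The text gives some of these, and a few are not reported here. The alternatives changed the pseudocount, filter, scaling or variance model, added a replicate block, or dropped each library in turn. The sum of Apoc2 and Gm44805 was added after seeing the data. Scripts ran in Python 3.11.15.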

Additional observations from a re-analysis of the deposited data

How the results depend on the processing

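Apoe, Apoc1 and Apob stayed below 0 under all alternatives run for them. Where a library was left out, this follows from both knockdown libraries lying below both controls. With each library dropped in turn, log2 changes ran from -5.11 to -3.14 for Apoe, from -1.81 to -0.75 for Apoc1, from -0.09 to 1.38 for Apoc2 and from -0.66 to 2.53 for Apoa1. They ran from -1.23 to -0.33 for Apob, from -2.28 to 0.42 for Apoh and from -0.28 to 0.00 for Apoa2. The sign turned for 3 genes, all without shTopors 1, to -0.09 for Apoc2, -0.66 for Apoa1 and 0.42 for Apoh, and the cause was not tested. Members called lower ranged from 0 to 3 and higher from 0 to 2 with 1 library left out, genes of the 5 pathway lists from 0 to 19 lower and from 0 to 9 higher, and all genes from 0 to 1479 lower and from 0 to 687 higher. With a pseudocount of 0.1 the untested genes moved to -0.82 for Apoa2, 1.75 for Apoc3 and -0.20 for Apom. Apoc3 was at 0.09 with a pseudocount of 5 and at 0.52 when rescaled without mitochondrial and the 20 most abundant genes. Median-of-ratios scaling and quantile normalization moved the median log2 change of all tested genes by 0.17 and 0.18, and the 6 tested members kept their signs. Against 4 lower and 1 higher, all genes called were 1 lower and 0 higher under each of these scalings, under the rescaling and with the filter raised to 5 TPM, and 0 in both directions with no filter on low values, all in limma, where 1447 and 537 genes had an unadjusted p under 0.05 with the main settings.

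The labels number the libraries 1 and 2 in both groups but do not say that a number marks a shared culture or day. Deviations of the libraries numbered 1 from their group means had a correlation of 0.199 across genes, and 2 pairs do not establish a pairing. With the replicate block, 27 genes were called lower and 6 higher, and 1 of the 6 tested members was called lower, Apoe, at a log2 change of -4.13 and a limma adjusted p = 0.0210. Over the alternatives other than leaving out a library, the adjusted p of Apoe ranged from 0.0210 to 0.382. The unknown depth limits what can be said of Apoa2, Apoc3 and Apom.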

Other observations

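Other genes with Apo symbols, chosen after their values were seen, do not encode plasma apolipoproteins of the 9-gene set. Apoo and Apool encode proteins of the mitochondrial inner membrane. Apoo was at 18.2 and 23.2 TPM in the control libraries and 16.3 and 18.8 TPM in the knockdown, and Apool at 23.1 and 29.6 TPM in the controls against 20.8 and 30.1 TPM in the knockdown, so both overlapped between groups. Apol10b, of the apolipoprotein L family, was at 1.15 and 1.03 TPM with shCtrl and 0.0477 and 0.210 TPM with shTopors and was below the filter of the test.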
